A study of Homo sapiens with 8 samples.

Results

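RNA levels of IMR90 fibroblasts after 12 h of Nutlin-3a were compared with those after 6 h, which shows what went on changing, what reversed and what first moved late in the exposure. The comparison set 2 libraries at 12 h against 2 at 6 h. It covered every gene of the deposited table with a normalized count of at least 10 in at least 2 of the 8 libraries of the study, 14074 of 18216 genes. IMR90 is a human lung fibroblast line, and the study sequenced its polyA RNA in 4 groups of 2 libraries, given DMSO (the solvent) or Nutlin-3a at 3 µg/mL for 6, 9 or 12 h. All cells were at passage 28, were kept in DMEM with 10% serum at 3% oxygen and 5% carbon dioxide, and were treated on the day after plating at 300000 cells per mL. A single line was used, and cells lacking p53 were not among the samples. The labels do not say how long the DMSO cells were kept, when cells were harvested or whether the replicates were separate cultures. P-values therefore measure only the spread between these libraries, which may be technical, and time under Nutlin-3a, time in culture and hour of harvest cannot be told apart.

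MDM2 is the ubiquitin ligase that keeps p53 low, and Nutlin-3a occupies the pocket of MDM2 that binds p53, so that p53 accumulates and activates its target genes. Among these is CDKN1A, which encodes the kinase inhibitor p21. When p21 blocks cyclin-dependent kinases, RB proteins and the DREAM complex hold cell-cycle genes down, at E2F sites mainly in genes of the G1/S transition and at cell-cycle homology region (CHR) elements in genes of G2 and mitosis. ATF4 and the unfolded protein response are stress pathways that raise genes of amino acid supply and protein folding.

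Gene reads amounted to 21.9 and 28.6 M (1e6 reads) in the 6 h libraries (replicates 1 and 2) and 33.6 and 26.3 M at 12 h. A floor of 3 reads corresponds to a normalized count of 2.46 to 3.75 over the 8 libraries and covers counting error only. The SD of the log2 difference between the libraries of a pair, over 11461 genes, was 0.129 at 6 h and 0.118 at 12 h, against 0.174 in DMSO. All 20 fibroblast markers passed the filter on low values, and their summed normalized count was 1290000 to 1300000 at 6 h and 1570000 to 1600000 at 12 h. A few abundant genes weigh most in this sum, such as COL1A1 with 438000 to 590000 over the 8 libraries. The median log2 change of the 20 markers from 6 to 12 h was 0.1. Of the epithelial markers 7 of 16 passed, with sums of 5500 to 5710 at 6 h and 5470 to 5500 at 12 h. CDH1 reached at most 3.75, and ESRP1 and SFTPB were each at 0 in 2 libraries. KRT18, by contrast, lay at 1770 to 2940 and KRT7 at 1590 to 2500 over the 8 libraries. Of the endothelial markers 7 of 12 passed (7690 to 7920 at 6 h and 7150 to 7570 at 12 h), and CDH5 was at 0 in 2 libraries and at most 6.55. ENG lay at 5200 to 6320 and TEK at 1400 to 2020. Of the immune markers 4 of 14 passed (1250 to 1380 at 6 h and 1480 to 1570 at 12 h), while PTPRC reached at most 5.77. CD68 lay at 736 to 982 and CD4 at 377 to 579. All 13 smooth muscle and pericyte markers passed, with sums of 40800 to 41900 at 6 h and 44000 to 45100 at 12 h. The part of other cell types in the results was not tested.

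Between 6 and 12 h, 2031 genes rose and 2400 fell, 14.4% and 17.1% of those tested (limma, Benjamini-Hochberg adjusted p under 0.05). Counts in the gene lists below are to be read beside these shares. Most of these changes were small, with a median absolute log2 change of 0.34 among called genes and of 0.00 for the change over all genes. At least 2-fold rises numbered 94 (0.668%) and at least 2-fold falls 251 (1.78%), so the large changes were mostly falls. The count of rises was 1274 without 12 h replicate 1 and 1248 without 12 h replicate 2. A list of 65 tested G2 and mitosis genes held 53 of the at least 2-fold falls. Together, 5 lists of p53 targets and p53-linked RNAs, which do not hold every p53 target, held 2 of the at least 2-fold rises. They had 31, 25, 24, 12 and 12 genes tested, and 0.668% of all genes rose that far. Of the 12 largest rises in well-counted genes, 8 were in genes with a 6 h mean below that of DMSO and 4 in genes with a 6 h mean above it. These 12 genes were chosen for a wide gap between 6 and 12 h, which by itself favours low 6 h means. The same share was not counted over all genes. In bulk RNA, fewer cells of a type and less RNA per cell cannot be told apart.

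The 9 h means are not part of this contrast, although the 9 h and DMSO libraries enter its estimate of spread, and they mostly lay on the way from 6 h to 12 h. The 9 h mean was between the 6 h and 12 h means for 87.3% of genes that rose (1774 genes) and for 91.8% of genes that fell (2204 genes), against 57.5% of all genes tested. Of the genes that changed at least 2-fold, it lay between for 94.7% of the rises and 98.8% of the falls. Called genes were chosen for a wide gap between 6 and 12 h, which by itself raises these shares above that of all genes. The comparison of 9 h with DMSO sets other libraries against each other than that of 12 h with 6 h, with the same estimate of spread, and it was used to sort the later changes. At 9 h, 2273 genes (16.2%) were higher and 2691 genes (19.1%) lower than in DMSO.

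Of the genes that fell from 6 to 12 h, 1173 were lower than DMSO at 9 h. They were 48.9% of all falls and 43.6% of the genes lower at 9 h, and 176 of them fell at least 2-fold. The class does not say whether a gene was already below DMSO at 6 h. Another 313 falls, 13.0% of falls and 13.8% of genes higher at 9 h, were in genes above DMSO at 9 h. These falls were in the direction of DMSO, and the class does not say whether a gene had passed it by 12 h. Among the rises, 692 were in genes above DMSO at 9 h (34.1% of rises and 30.4% of genes higher at 9 h), and 184 were in genes below DMSO at 9 h (9.06% of rises and 6.84% of genes lower at 9 h). The remaining 1155 rises and 914 falls were in genes not called at 9 h. The sizes of these classes depended on single libraries. The class of rises above DMSO held 426 to 883 genes when 1 library at a time was left out, and the falls back towards DMSO held 200 to 472.

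**Figure D1:**
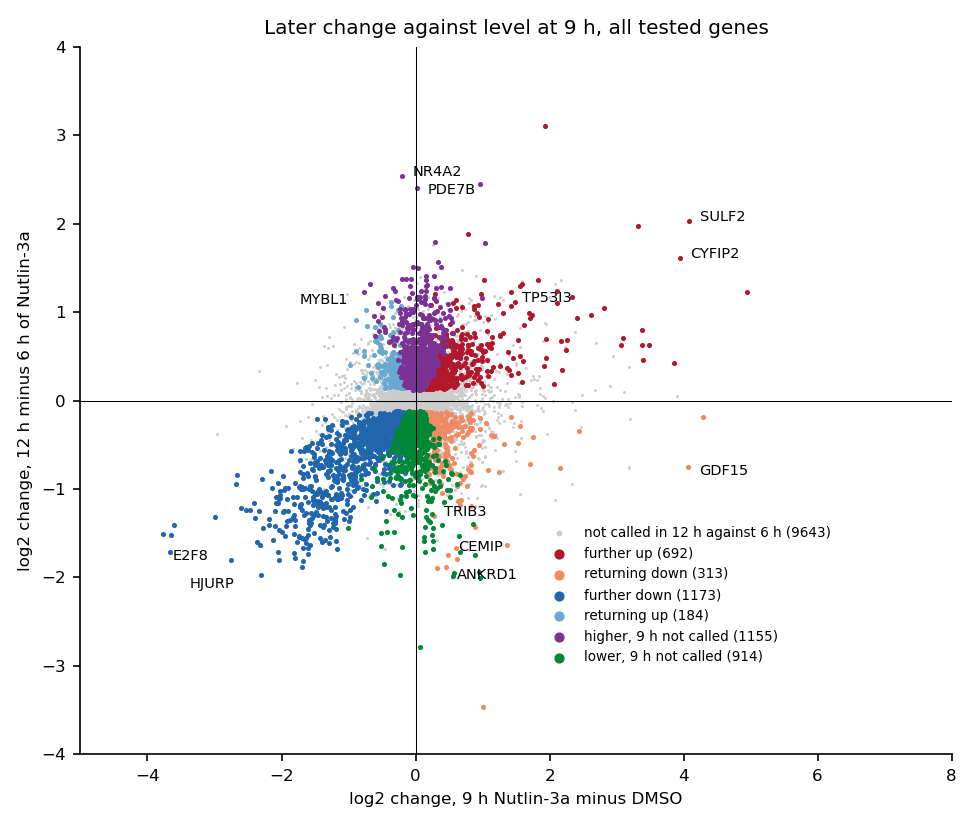
Each point is a gene, with its log2 change from DMSO to 9 h on the x axis and its log2 change from 6 h to 12 h on the y axis (all 14074 tested genes). Colours give the 6 classes with their sizes, and grey points were not called between 6 and 12 h. The 1173 genes that were below DMSO at 9 h and fell from 6 to 12 h (further down) fill the lower left.

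The genes of G2 and mitosis went down together. All 65 tested members of the list fell, 53 of them at least 2-fold, with a median log2 change of −1.32, against 17.1% of all genes and a median of 0.00. HJURP, the chaperone that loads the centromeric histone CENPA, had the steepest fall of the list. Its normalized counts were 2329 and 2141 in DMSO, 936 and 996 at 6 h, 461 and 437 at 9 h and 241 and 248 at 12 h, so every 12 h library was below every other library. The log2 change was −1.98 ± 0.07 (± SE, adjusted p 5.07e-14). CENPA itself went from 313 and 349 at 6 h to 94.9 and 91.6 at 12 h, a log2 change of −1.81 ± 0.11. MKI67, the proliferation marker Ki-67, had 14630 and 13173 in DMSO, 7686 and 7679 at 6 h, 4531 and 4150.1 at 9 h and 2449 and 2392 at 12 h. Its 4 groups did not overlap, and the log2 change was −1.67 ± 0.05 (adjusted p 1.93e-14). The 6 h and 12 h libraries did not overlap for 9374 of all 14074 genes tested. Genes named for the size of their change had to meet this.

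The fall reached each step of mitosis that the list covered. Among mitotic kinases, the log2 change was −1.56 for PLK1, −1.61 for AURKB, −1.67 for NEK2, −1.50 for BUB1 and −1.12 for AURKA. The spindle motors KIF2C (−1.64), KIF14 (−1.55) and KIF11 (−1.30) and the kinetochore genes NDC80 (−1.56) and NUF2 (−1.60) were in the same range. CDC20, an activator of the anaphase-promoting complex, had 1889 and 1928 at 6 h and 672 and 659 at 12 h, without overlap. Cyclins fell by less than HJURP, with CCNA2 at −1.43 and CCNB1 at −1.25. The shallowest falls of the list were CDC25B (−0.51), CKS1B (−0.52) and KIF18A (−0.58). LMNB1, the nuclear lamin B1, is no member of the list and fell from 1489.7 and 1575 to 497 and 515 (−1.60 ± 0.06).

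Genes of G1/S and DNA replication fell less. Of 55 members, 50 fell, 21 of them at least 2-fold, and the median log2 change was −0.85. All 55 had a log2 change below 0. E2F1, a transcription factor that drives S-phase genes, had 1194 and 1255 in DMSO, 553 and 556 at 6 h, 314 and 318 at 9 h and 192 and 190.4 at 12 h, a log2 change of −1.53 ± 0.08 (adjusted p 4.14e-12). Its libraries at 12 h lay below all others. E2F8, an E2F repressor, had the largest log2 change of the list (−1.80 ± 0.17) at low counts of 20.5 and 18.7 at 12 h. Of the helicase subunits, MCM7 fell by 1.37 ± 0.05, from 3839 and 4102 to 1500.2 and 1579.6, and MCM2 fell by 1.25 ± 0.06. RRM2, a subunit of ribonucleotide reductase, fell by 1.35 ± 0.05. The 5 members that were not called had low or middling changes of −0.24 (TIPIN), −0.23 (CCNE1), −0.19 (UNG), −0.11 (LIG1) and −0.07 (CDK2). CCNE1, cyclin E1, had already gone from 462 and 394 in DMSO to 164 and 148 at 6 h and stood at 138 and 128 at 12 h. CCNE2, its close relative, went on falling from 186 and 169 to 55.7 and 67.6 (−1.52 ± 0.13).

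The timing of both lists can be read from their medians against DMSO, which share libraries with the later comparison and are given as values. The G1/S list had a median log2 difference from DMSO of −1.03 at 6 h, −1.61 at 9 h and −2.03 at 12 h. The G2/M list had −0.72 at 6 h, −1.42 at 9 h and −1.99 at 12 h. By 12 h the medians of the 2 lists were close, and the larger step of the G2/M list came after 6 h.

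**Figure D2:**
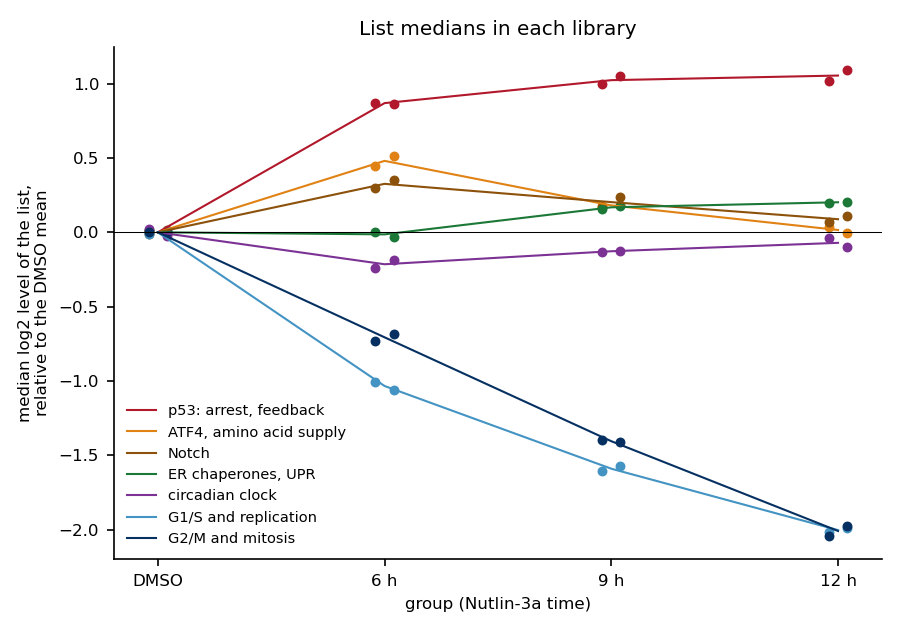
The median log2 level of 7 gene lists in each library (points, 2 per group) relative to the mean of the DMSO libraries is plotted for DMSO and for 6, 9 and 12 h of Nutlin-3a, and lines join the group means. The G1/S and G2/M lists lie apart at 6 h and together at 12 h, and the ATF4 and Notch lists peak at 6 h.

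Genes of DNA damage signalling, homologous recombination and the Fanconi pathway fell with them. Of 34 members 30 fell and 1 rose (median −0.77). RAD54L (−1.47 ± 0.11), EXO1 (−1.44 ± 0.10) and BLM (−1.25 ± 0.09), a motor protein, a nuclease and a helicase of recombination, fell most among well-counted members. BRCA1 went from 758 and 712 to 372 and 349.6 and BRCA2 from 544 and 495 to 250.4 and 268, and both fell. The exception was ATM, the kinase that senses double-strand breaks, which rose from 1451 and 1329 to 1744 and 1773 (0.34 ± 0.06).

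Members of the RB, DREAM and MuvB group moved both ways. Of 16 members 9 fell, led by LIN9 of the MuvB core (−1.15 ± 0.10) and RBL1, which encodes the pocket protein p107 (−0.97 ± 0.07), and 2 rose. MYBL1, a MYB factor of the same family as the G2 activator MYBL2, rose by 1.03 ± 0.06. Its counts were 3969 and 4407 in DMSO, 1616 and 1634 at 6 h, 2484 and 2516 at 9 h and 3202 and 3420.4 at 12 h. It was lowest at 6 h, and the libraries at 12 h were above 9 h yet still below DMSO. MYBL2 itself fell from 951 and 1103 to 417 and 416 (−1.29 ± 0.09). The other rise, of DYRK1B, a kinase linked to quiescence, was small (0.35 ± 0.10) and lost its call without the intensity trend and without either 12 h replicate or 6 h replicate 2.

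The promoters of the falling genes are shown because the 2 cell-cycle lists differ in the elements they carry. Sequences are RefSeq's, in GRCh38.p14, and each window runs from 250 bases before to 50 after the start of transcription. Of the tested genes 10598 had a window, and the 7542 genes with exactly 1 were counted. The CHR letters searched were TTTGAA and TTCGAA on both strands. They were found in 37 of 50 G2/M promoters (74.0%) and in 3 of 35 G1/S promoters (8.57%), against 11.1% of all windows. CCAAT, the letters bound by the factor NF-Y, stood in 74.0% of G2/M and 51.4% of G1/S promoters, against 37.5% of all, and 62.0% of G2/M promoters held both CHR and CCAAT letters, against 4.85% of all. E2F letters (TTCCCGCC, TTTCCCGC, TTTGGCGC, TTTCGCGC or TTGGCGGG, on both strands, some of which overlap in a promoter) showed the opposite split, with 26 of 35 G1/S promoters (74.3%) and 16.0% of G2/M promoters, against 10.2% of all.

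Among all genes that fell at least 1.5-fold, 27.4% of 354 promoters held CHR letters and 22.9% held E2F letters. These genes include members of both cell-cycle lists, so the shares are not separate from those above. Among genes that rose at least 1.5-fold, 10.7% of 169 promoters held CHR and 7.1% held E2F letters, near the shares of all windows. The cyclic AMP response element TGACGTCA stood in 3.55% of promoters of rising genes and 3.58% of all, and the E-box CACGTG in 8.28% and 10.2%. A match is a run of letters and not a measured binding site.

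**Figure D3:**
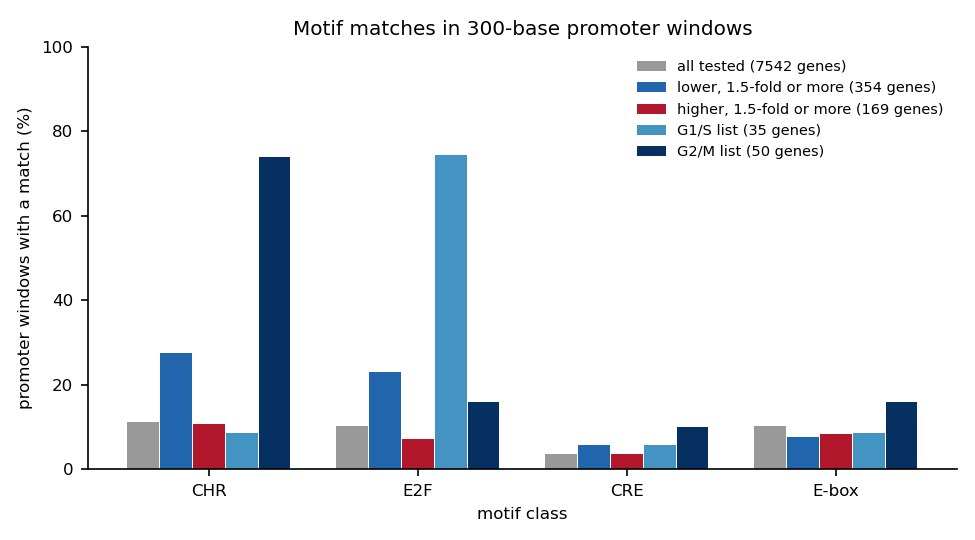
Bars give the percentage of 300-base promoter windows with a match to each motif class, for all tested genes with 1 window, genes that fell or rose at least 1.5-fold, and the G1/S and G2/M lists. CHR matches are most frequent in the G2/M list (74.0%) and E2F matches in the G1/S list (74.3%).

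Written 5′ to 3′, the 160 bases before the start of 5 G2/M genes are given with CHR and CCAAT letters (or the reverse complement ATTGG) in capitals. They lie at chr16:23678729-23678888 on the plus strand for PLK1, chr10:128126424-128126583 on the minus strand for MKI67, chr2:233854536-233854695 on the minus strand for HJURP, chr2:26785896-26786055 on the plus strand for CENPA and chr1:43358821-43358980 on the plus strand for CDC20.
PLK1: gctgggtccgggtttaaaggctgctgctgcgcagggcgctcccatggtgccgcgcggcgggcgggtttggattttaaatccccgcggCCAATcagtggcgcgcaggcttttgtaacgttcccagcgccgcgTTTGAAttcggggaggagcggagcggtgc
MKI67: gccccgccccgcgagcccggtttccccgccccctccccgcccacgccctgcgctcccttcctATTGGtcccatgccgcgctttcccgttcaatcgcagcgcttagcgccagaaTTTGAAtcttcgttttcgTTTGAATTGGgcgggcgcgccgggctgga
HJURP: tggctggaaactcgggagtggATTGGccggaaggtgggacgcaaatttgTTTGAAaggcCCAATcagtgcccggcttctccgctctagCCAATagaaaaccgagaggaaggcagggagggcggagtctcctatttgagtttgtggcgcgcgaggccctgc
CENPA: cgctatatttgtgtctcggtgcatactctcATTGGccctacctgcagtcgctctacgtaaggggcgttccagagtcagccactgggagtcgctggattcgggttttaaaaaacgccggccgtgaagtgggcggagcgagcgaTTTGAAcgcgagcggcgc
CDC20: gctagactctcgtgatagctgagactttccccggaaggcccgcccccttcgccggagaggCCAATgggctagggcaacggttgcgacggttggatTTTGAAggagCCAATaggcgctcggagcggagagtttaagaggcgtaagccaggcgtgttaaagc
In 3 G1/S genes the capitals mark E2F letters on either strand. These lie at chr3:48188418-48188577 on the minus strand for CDC25A, chr16:88803629-88803788 on the plus strand for CDT1 and chr20:33686386-33686545 on the minus strand for E2F1.
CDC25A: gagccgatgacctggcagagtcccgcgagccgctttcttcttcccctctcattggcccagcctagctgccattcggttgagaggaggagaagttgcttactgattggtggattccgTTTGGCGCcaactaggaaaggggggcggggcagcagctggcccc
CDT1: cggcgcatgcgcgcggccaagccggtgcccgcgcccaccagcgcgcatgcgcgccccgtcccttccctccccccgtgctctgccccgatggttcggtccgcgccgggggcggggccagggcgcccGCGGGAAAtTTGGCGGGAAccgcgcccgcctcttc
E2F1: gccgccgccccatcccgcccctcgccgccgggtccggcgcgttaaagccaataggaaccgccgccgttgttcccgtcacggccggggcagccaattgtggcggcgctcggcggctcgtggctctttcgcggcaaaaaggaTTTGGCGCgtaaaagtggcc
The 8 genes were chosen after their matches were seen. PLK1 has 1 CHR match, 29 bases before the start, and MKI67 has 2, at 47 and 29 bases. CDC25A, a phosphatase that activates CDK2, fell by 0.79 ± 0.09, and CDT1, which licenses origins of replication, fell by 0.99 ± 0.10.

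The p53 target genes did not move as a block. Over all genes 14.4% rose and 17.1% fell. Among 24 targets of metabolism, redox and autophagy 7 rose and 3 fell (median 0.00). Among 12 targets of DNA repair 3 rose and 3 fell (median −0.01). Among 31 targets of arrest and feedback 7 rose and 8 fell (median −0.08), and among 25 targets of apoptosis and death receptors 7 rose and 5 fell (median 0.03). These 5 falls numbered 1 without the intensity trend and 2 or 3 when a 6 h or 12 h library was left out. CDKN1A had 4954 and 4670 in DMSO, 52553 and 54207 at 6 h, 68941 and 69997 at 9 h and 72462 and 70871 at 12 h, so that it rose on by 0.42 ± 0.04 (adjusted p 2.68e-07) from a 6 h level already far above DMSO. MDM2 was level, with 17569 and 15771 at 6 h and 17639 and 17872 at 12 h (log2 change 0.09 ± 0.06, adjusted p 0.265).

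The 7 rises of the arrest list and the 7 of the apoptosis list were all in genes above DMSO at 9 h. TP53I3, a quinone oxidoreductase first found as a p53-induced gene, had 903 and 914 in DMSO, 1457 and 1511 at 6 h, 2389 and 2501 at 9 h and 3060.1 and 3168 at 12 h. It rose by 1.07 ± 0.05, and each time point lay above the one before. The mitochondrial genes SPATA18 (0.93) and FDXR (0.70), the decoy receptor gene TNFRSF10D (0.77), the p53-induced ubiquitin ligase gene TRIM22 (0.68) and RPS27L (0.56), a ribosomal protein paralogue, also rose. BAX, which permeabilizes mitochondria, rose from 3825 and 4041 to 5051 and 4882 (0.34 ± 0.05).

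The rises of SULF2, CYFIP2 and INPP5D were larger. These genes were not placed in the p53 lists used here, which does not say whether they are p53 targets. They are described for the size of their change. SULF2, an extracellular sulfatase that trims heparan sulfate, had 18.6 and 13.97 in DMSO, 92.6 and 93.2 at 6 h, 287 and 291 at 9 h and 386 and 377 at 12 h. Its 4 groups did not overlap, and it rose by 2.03 ± 0.14 between 6 and 12 h (adjusted p 8.56e-10). CYFIP2, a subunit of the WAVE actin-regulatory complex, had 69.4 and 82.7 in DMSO, 483 and 449 at 6 h, 1198 and 1164 at 9 h and 1455 and 1407 at 12 h, a rise of 1.62 ± 0.09. INPP5D, the lipid phosphatase SHIP1, rose by 1.22 ± 0.24 at low counts, and its DMSO libraries, at 1.95 and 4.3, were near the floor of 3 reads.

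Of the falls, 6 in the arrest list and 4 in the apoptosis list were in genes above DMSO at 9 h. GDF15, a secreted stress cytokine, had 206 and 186 in DMSO, 4587 and 4450 at 6 h, 3247 and 3370 at 9 h and 2734 and 2628 at 12 h. Its libraries at 6 h were the highest, and the log2 change was −0.75 ± 0.06 (adjusted p 4.23e-09). SESN2, a stress-induced inhibitor of mTORC1, fell by 0.41 ± 0.06, PHLDA3, an inhibitor of AKT, fell by 0.29 ± 0.05 and GADD45A fell by 0.25 ± 0.06. BBC3, which encodes the death protein PUMA, went from 638 and 649 to 502 and 509.9 (−0.35 ± 0.09). All of them stayed above DMSO at 12 h, as in SESN2 with 523 in DMSO and 1652 at 12 h. Of 12 p53-linked long non-coding RNAs 3 rose and 2 fell, or 1 without 12 h replicate 1 (median 0.04). TP53TG1 rose by 0.83 ± 0.09. The falls were in NEAT1, the scaffold RNA of paraspeckles, from 2833 and 2673 to 2151 and 2314 (−0.30 ± 0.07), and in LINC-PINT, from 468 and 435 to 331 and 364 (−0.38 ± 0.09). LINC-PINT lost its call without 12 h replicate 1 and NEAT1 without the intensity trend.

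**Figure D4:**
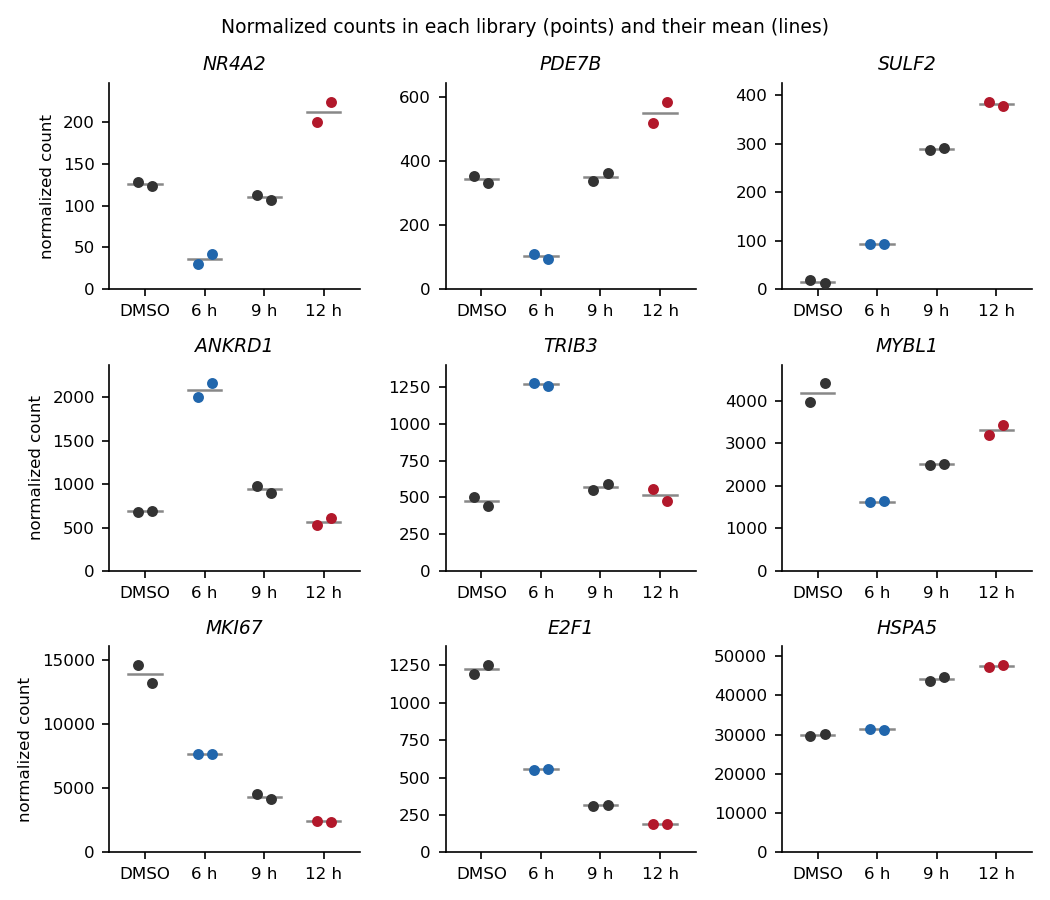
Normalized counts of 9 genes in each library (points; blue 6 h, red 12 h, dark DMSO and 9 h), with group means as lines and axes from 0. NR4A2, PDE7B and MYBL1 are lowest at 6 h, ANKRD1 and TRIB3 are highest at 6 h, SULF2 and HSPA5 go up and MKI67 and E2F1 go down to 12 h.

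A set of genes was high at 6 h and lower at 12 h, when some of them were below DMSO. ANKRD1, a muscle ankyrin-repeat protein and YAP target, had 677 and 696 in DMSO, 2004 and 2164 at 6 h, 985 and 903 at 9 h and 526 and 605 at 12 h. The 6 h libraries stood well above DMSO and those at 12 h below it, with a log2 change of −1.88 ± 0.07 (adjusted p 1.4e-13). ANO1, a calcium-activated chloride channel, had 319 and 348 in DMSO, 849 and 913 at 6 h, 420.2 and 414 at 9 h and 223 and 252 at 12 h, a log2 change of −1.89 ± 0.09. CEMIP, which degrades hyaluronan, had 1634 and 1676 in DMSO, 4333 and 4405 at 6 h, 2404 and 2209 at 9 h and 1294 and 1304 at 12 h and fell by 1.75 ± 0.05. Both ended under their DMSO level. ANGPTL4, a secreted inhibitor of lipoprotein lipase, had 359 and 423 in DMSO, 2213 and 2249.5 at 6 h, 1071 and 938 at 9 h and 755 and 686 at 12 h and fell by 1.63 ± 0.08, and its 12 h libraries were still above DMSO. Falls were also seen in CAVIN4, a caveolar coat protein of muscle (−1.66 ± 0.08), and the calcium-sensor family gene SYT16 (−1.79 ± 0.21). The heme oxygenase gene HMOX1 (−1.20 ± 0.08) and TSC22D3, the glucocorticoid-induced leucine zipper GILZ (−1.18 ± 0.07), fell too.

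Genes called lower between 6 and 12 h but not at 9 h against DMSO included more of this shape. PTGS2, the inducible cyclooxygenase, had means of 269.5 in DMSO, 666 at 6 h, 316 at 9 h and 329 at 12 h (−1.02 ± 0.10). NFATC2, a calcineurin-regulated transcription factor, had 105 in DMSO, 261 at 6 h, 125 at 9 h and 107 at 12 h (−1.29 ± 0.14). The Wnt effectors LEF1 (−1.24 ± 0.15) and TCF7 (−0.89 ± 0.12) ended below DMSO, LEF1 with 106 and 108 in DMSO and 65.5 and 56.2 at 12 h. Of 23 Wnt genes in all, 6 fell and 3 rose, where 17.1% of all genes fell and 14.4% rose. Without the intensity trend 4 fell and 2 rose.

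Secreted factors fell more often than they rose, where 17.1% of all genes fell and 14.4% rose. Of 30 secreted inflammatory and senescence-associated factors 12 fell and 7 rose, or 4 without 12 h replicate 2 (median −0.22). IL6 went from 230.2 and 238 to 124 and 116 (−0.96 ± 0.12), and STC1, the glycoprotein stanniocalcin, from 9011 and 9161 to 5551 and 5336 (−0.74 ± 0.04). Of 24 matrix proteases and their inhibitors 7 rose, or 4 without the intensity trend, and 6 fell (median 0.00). PLAT, tissue plasminogen activator, had 8026 and 7601 in DMSO, 14897 and 14829 at 6 h, 10274 and 9988 at 9 h and 7770.2 and 7708 at 12 h and fell by 0.94 ± 0.04. Its 12 h libraries were at the DMSO level. Rises were seen in HGF, hepatocyte growth factor (0.48 ± 0.06), the chemokine gene CXCL12 (0.38 ± 0.06) and the protease gene ADAMTS1 (0.76 ± 0.05). PAPPA, a protease that cleaves insulin-like growth factor binding proteins, is no member of these lists and rose from 1326 and 1242 to 3081 and 2949 (1.23 ± 0.06).

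Genes of the ATF4 pathway and amino acid supply fell from a 6 h peak. Of 35 members 27 fell and 1 rose (median −0.41). Of the falls 14 were in genes above DMSO at 9 h, 4 in genes below it and 9 in genes not called there. TRIB3, a pseudokinase induced by ATF4, had 504 and 444 in DMSO, 1277 and 1262 at 6 h, 554 and 591 at 9 h and 555 and 476 at 12 h. Only the libraries at 6 h stood apart, and the log2 change was −1.30 ± 0.08 (adjusted p 1.7e-10). The amino acid transporter SLC7A5 had 8388 and 7767 in DMSO, 14966 and 14776 at 6 h, 9762 and 8927 at 9 h and 7106 and 6650.4 at 12 h, a log2 change of −1.11 ± 0.05, and at 12 h it was below DMSO. SLC7A11, the cystine transporter (−1.02 ± 0.07), its partner chain SLC3A2 (−0.79 ± 0.05), and MTHFD2 of mitochondrial one-carbon metabolism (−1.08 ± 0.06) fell likewise. PSAT1 (−0.64 ± 0.05) and PHGDH (−0.30 ± 0.05) of serine synthesis and ASNS, asparagine synthetase (−0.36 ± 0.05), also fell. ATF4 mRNA itself went from 5268 and 5642 to 4070.1 and 3984 (−0.44 ± 0.06). The rise was in SLC38A2, a transporter of small neutral amino acids, from 25858 and 23712 to 33894 and 34047 (0.46 ± 0.06). The list's median difference from DMSO was 0.47 at 6 h, 0.19 at 9 h and 0.03 at 12 h on the log2 scale.

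Endoplasmic reticulum chaperones and other genes of the unfolded protein response moved the other way. Of 28 members 17 rose and 1 fell (median 0.21), with 3 falls without either DMSO library. HSPA5, the chaperone BiP, had 29628 and 30084 in DMSO, 31474 and 31209 at 6 h, 43702 and 44691 at 9 h and 47130 and 47818 at 12 h. The 6 h libraries were near DMSO, while those at 9 and 12 h were higher, and the rise was 0.60 ± 0.04 (adjusted p 7.2e-10). DNAJB9 (0.70), SDF2L1 (0.67), MANF (0.55), SYVN1 (0.54), a ubiquitin ligase of protein quality control, and HYOU1 (0.52) rose as well. The fall was in PPP1R15A, also called GADD34, which reverses the translation block of the stress response, from 4903 and 5099 to 3405 and 3523 (−0.53 ± 0.06). The list's median difference from DMSO was −0.02 at 6 h, 0.17 at 9 h and 0.20 at 12 h.

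**Figure D5:**
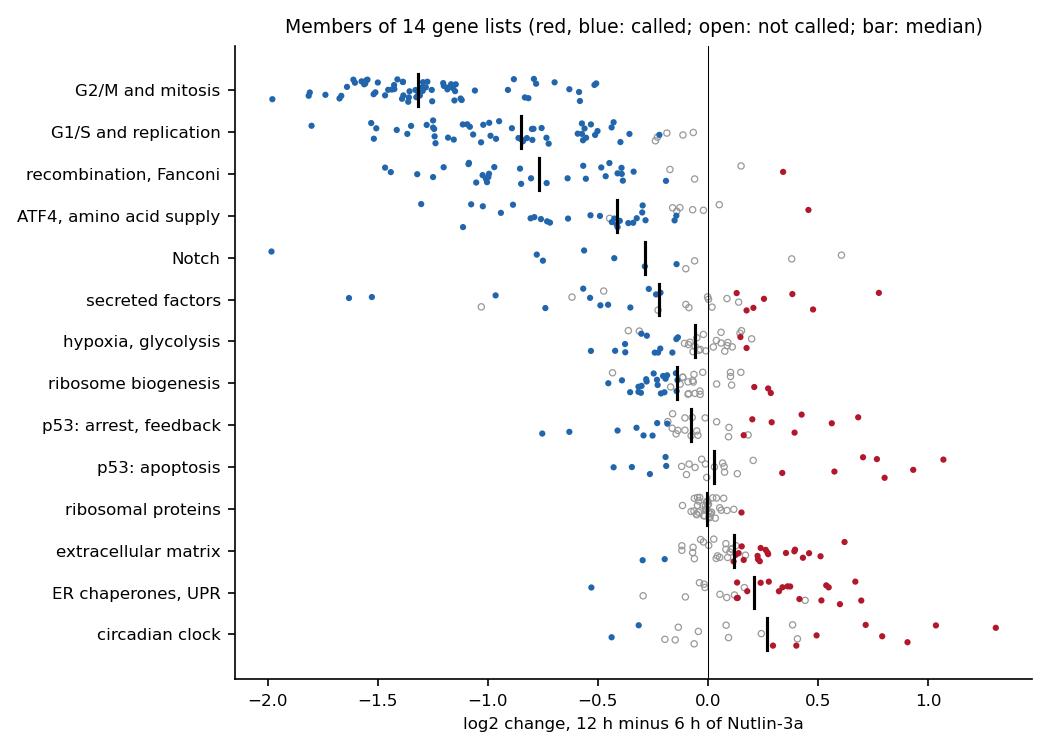
Each point is a member of 1 of 14 gene lists, placed by its log2 change from 6 to 12 h of Nutlin-3a (red or blue, called higher or lower; open, not called), and black bars are list medians. All 65 G2/M genes lie on the left, 17 of 28 genes of the unfolded protein response are called on the right, and ribosomal protein genes gather at 0.

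Matrix genes rose modestly, where 14.4% of all genes rose and 17.1% fell. Of 41 members of the extracellular matrix list 19 rose and 2 fell (median 0.12), and the falls numbered 0 without 12 h replicate 2, 1 without 6 h replicate 1 and 4 without either DMSO library. COL7A1, the anchoring fibril collagen, rose most, from 4458 and 4227 to 6710.3 and 6634 (0.62 ± 0.05). The fibrillin genes FBN1 (0.51 ± 0.05) and FBN2 (0.46 ± 0.05), POSTN (0.43 ± 0.05) and COL3A1 (0.27 ± 0.04) rose by less than 1 on the log2 scale. COL1A1, the most abundant of them, had 447900 and 437740 at 6 h and 589700 and 574880 at 12 h (0.40 ± 0.05), a rise that vanished under quantile normalization (0.00), which sets the highest ranks of all libraries equal. FBN1, POSTN and COL3A1 are also fibroblast markers, of which 9 of 20 rose and 4 fell (2 without the intensity trend). TCF21, a mesenchymal transcription factor, rose most of these, from 532 and 608 to 1043 and 1132 (0.93 ± 0.07).

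NR4A2 and PDE7B, with the 2 largest rises among well-counted genes, had a trough at 6 h. NR4A2, an orphan nuclear receptor of the immediate early class, had 128 and 124 in DMSO, 30.02 and 42.3 at 6 h, 113 and 107 at 9 h and 199.7 and 224 at 12 h. The 6 h libraries were the lowest and those at 12 h the highest of the 8, and the rise was 2.54 ± 0.16 (adjusted p 1.49e-10). PDE7B, a phosphodiesterase that breaks down cyclic AMP, had 353 and 332 in DMSO, 110.1 and 96.1 at 6 h, 338 and 361 at 9 h and 516 and 584 at 12 h, a rise of 2.40 ± 0.10 (adjusted p 4.25e-13). Its 6 h libraries were also the lowest and those at 12 h the highest, while 9 h and DMSO overlapped. PDE4B, another cyclic AMP phosphodiesterase, went from 190.1 and 181 to 385 and 408 (1.09 ± 0.09). SSTR1, a somatostatin receptor, had 878 and 962 in DMSO, 435 and 508 at 6 h, 816 and 786 at 9 h and 1184 and 1256 at 12 h and rose by 1.37 ± 0.08. The Wnt ligand gene WNT16 (1.16 ± 0.10), the p38 kinase activator MAP2K6 (1.24 ± 0.18) and the sodium bicarbonate cotransporter SLC4A4 (1.07 ± 0.06) had the same course. KCNJ8 and ABCC9, the pore and regulatory subunits of a potassium channel gated by ATP, rose together, from 305 and 342 to 698 and 735 (1.15 ± 0.08) and from 203 and 189 to 389.6 and 407 (1.02 ± 0.09). Both genes are also among the smooth muscle and pericyte markers, of which 6 of 13 rose and 1 fell, with 3 rises and 0 falls without the intensity trend or without 6 h replicate 1, and 0 falls also without 12 h replicate 2 or either 9 h library.

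Further rises were in genes already above DMSO at 9 h, of which MXD4 and RFX5 had 6 h means below DMSO. MXD4, a partner of MAX that opposes MYC, had means of 1509.9 in DMSO, 1332 at 6 h, 2227 at 9 h and 2872 at 12 h (1.11 ± 0.05). SCN2A, a voltage-gated sodium channel, had 73.1 in DMSO, 135 at 6 h, 262 at 9 h and 349 at 12 h (1.36 ± 0.11). EPS8L2, a relative of the actin regulator EPS8, had 417 in DMSO, 656 at 6 h, 1231 at 9 h and 1611 at 12 h (1.30 ± 0.07). RFX5, a transcription factor of major histocompatibility genes, had 561 in DMSO, 410.2 at 6 h, 659 at 9 h and 866 at 12 h (1.08 ± 0.07). KRT19, a simple-epithelium keratin, rose from 149 and 169 to 369 and 365 (1.21 ± 0.10) and KRT7 by 0.45 ± 0.05, while KRT18 fell by 0.66 ± 0.05. These 3 keratins are in the epithelial marker list, in which over all 8 libraries KRT8 lay at 290.0 to 347, CLDN4 at 246 to 367, MUC1 at 121 to 159 and EPCAM at 17.3 to 28.9, and CDH1, ESRP1, GRHL2, ELF3 and SFTPB at 6.25 or below.

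Core clock genes rose on balance, where 14.4% of all genes rose and 17.1% fell. Of 20 tested 8 rose and 2 fell (median 0.27), and the falls numbered 5 when the libraries at 6 and 12 h were fitted alone or either DMSO library was left out. NR1D1, the nuclear receptor REV-ERB alpha, had 362 and 268 in DMSO, 183 and 179 at 6 h, 364 and 333 at 9 h and 462 and 436 at 12 h and rose by 1.31 ± 0.11 (adjusted p 1.89e-08). Its level was lowest at 6 h. TEF (1.03 ± 0.11), PER1 (0.91 ± 0.18), CIART (0.72 ± 0.16) and CRY2 (0.49 ± 0.09) rose, and CRY1 fell from 897 and 813 to 624 and 637 (−0.44 ± 0.07). The hour of harvest is not given, and its part in these changes was not tested.

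Notch genes fell, with 7 of 11 called lower (median −0.29). None rose by limma, nor by edgeR or DESeq2, and 0 had an unadjusted p under 0.05 in that direction. NOTCH1 went from 2676 and 2303 to 1851 and 1843 (−0.43 ± 0.07), NOTCH2 fell by 0.29 ± 0.05, and the targets HES1 (−0.56 ± 0.10) and HES4 (−0.78 ± 0.13) fell too. The target HEYL had 32.5 and 24.98 at 6 h and 5.73 and 7.28 at 12 h, a log2 change of −1.98 ± 0.41 from counts low enough that the scale understates it. The list's median difference from DMSO was 0.33 at 6 h and 0.09 at 12 h.

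Immediate early genes were mixed, where 17.1% of all genes fell and 14.4% rose. Of 28 members 13 fell, or 8 without 6 h replicate 2, and 6 rose. ATF3 went from 189 and 176 to 91.7 and 118 (−0.81 ± 0.15) and CTGF, a matricellular protein gene, from 35643 and 36584 to 27248 and 27520 (−0.40 ± 0.04), while EGR1 (0.34 ± 0.06) and FOSL2 (0.40 ± 0.06) rose. Of 43 genes of ribosome biogenesis 20 fell and 3 rose (median −0.14). The falls numbered 12 without the intensity trend and 13 and 11 without 12 h replicate 1 and 2. UBTF, the RNA polymerase I factor UBF, fell by 0.45 ± 0.05, from 3341 and 3473 to 2516 and 2459.9. By contrast, 1 of 37 ribosomal protein genes rose and 0 fell by limma, with a median of −0.01. EdgeR and DESeq2 also called 0 falls, and 1 fall had an unadjusted p under 0.05. Of 18 reference housekeeping genes 1 rose and 2 fell (median −0.01), counts that ranged from 0 to 2 and from 2 to 5 over the alternatives.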

How the data were processed

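PolyA RNA libraries were made with a kit that keeps the strand, per the labels' protocols. The submitters' processing notes name STAR, DESeq2 and the build hg19, without versions. The counting tool and its strand setting: not given in the sources used here. Values in the deposited table are a normalized signal, that is, the counts of each gene over the size factor of its library. All values were whole multiples of 1 read (100% within 1e-06), so reads could be recovered; in 9 h replicate 1 that step lies near 1. Entries for reads assigned to no gene held 28.2 to 29.1% of each library and were left out.

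Log2(normalized count + 1) was fitted with limma 3.58.1 and an intensity trend in R 4.3.3, in 1 fit of 8 libraries in 4 groups (4 residual and 15.5 prior degrees of freedom). Log2 changes refer to that scale, where the changes of low genes are understated, and carry a standard error; 12 h minus 6 h is the direction throughout. P-values were adjusted by Benjamini and Hochberg over 14074 genes with a threshold of 0.05. In groups of 2 an exact permutation test cannot go below 0.333. EdgeR 4.0.16 and DESeq2 1.42.0 on recovered reads, other scalings, pseudocounts of 0.5 and 5, other filters, group weights and leaving out each library were tried as alternatives. The test was also run on simulated counts, in which few genes changed and all groups shared the same spread, unlike in the data. No result here rests on that run.

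The comparison, gene lists and motifs were chosen with earlier results of these data known. Named genes were the 12 largest rises and falls among called genes averaging 50 or more whose groups stood apart, the 6 largest changes of each class, up to 4 members a list and some fixed genes, with others chosen after their values were seen. Lists were described by counts and medians, with no set test. Promoters were matched by symbol, and since their build differs from that of the files no position in the files was used.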

Additional observations from a re-analysis of the deposited data

How the results depend on the processing

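Against 2031 rises and 2400 falls, edgeR gave 2147 and 2326 and shared 97.5% of the calls, and DESeq2 gave 1474 and 1887 and shared 75.8%. The 6 h and 12 h libraries fitted alone gave 2588 and 2942, and without the intensity trend there were 1429 and 1782. Quantile normalization gave 2315 and 2113. Leaving out 1 library at a time gave 1248 to 2674 rises and 1682 to 3000 falls. With a mean of at least 50 the at least 2-fold rises numbered 47. Without the trend the class of rises above DMSO at 9 h held 413 genes, falls from above DMSO 182, and rises from below DMSO 111 (110 by DESeq2). With 1 library left out these 3 classes held 426 to 883, 200 to 472 and 109 to 302 genes, rises not called at 9 h 686 to 1524, and falls not called at 9 h 568 to 1168. The cause of these shifts was not tested. GAPDH, which was not called, had a log2 change of −0.022 to 0.069 with 1 library left out, below 0 without 6 h replicate 1 (−0.022) or 12 h replicate 1 (−0.018) and above 0 in the full fit.

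With a replicate block there were 2041 rises and 2392 falls (98.4% of calls shared). Libraries with the same number did not deviate together (correlation −0.017 between 6 and 12 h, and −0.152 to 0.091 over all pairs of groups), so the numbers were not taken as pairs. Of 269 called genes that were followed, 40 lost their call in at least 1 of 20 alternatives and 0 changed direction. Counts near the floor, as for HEYL and INPP5D, limit the precision of single values.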

Other observations

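Genes of hypoxia and glycolysis fell more often than they rose, with 12 lower and 2 higher of 37 tested (median −0.06). The falls numbered 7 without the intensity trend or without 12 h replicate 2, and the rises 0 without the trend, 12 h replicate 1 or 6 h replicate 1, 1 without 12 h replicate 2 and 4 without either DMSO library. VEGFA, the vascular growth factor, went from 5805 and 5668 at 6 h to 3847 and 4088 at 12 h (−0.53 ± 0.05), and NDRG1, a stress-induced gene, fell by 0.38 ± 0.04. HK2, hexokinase 2, fell by 0.42 ± 0.05 and PFKFB3, which makes an activator of glycolysis, fell by 0.38 ± 0.05. Of 17 glucocorticoid-responsive genes 10 fell, or 6 without 12 h replicate 2, and 4 rose, or 2 without the intensity trend, either 12 h library or 6 h replicate 2. CEBPD, a transcription factor of the CCAAT/enhancer binding family, had means of 328 in DMSO, 194 at 6 h, 279 at 9 h and 388 at 12 h and was among the rises. ERRFI1, a feedback inhibitor of the EGF receptor, went from 12079 and 11972 to 7287 and 7595 (−0.69 ± 0.04). DUSP10, a phosphatase of p38 and JNK, rose from 1091 and 1134 to 1763 and 1795 (0.68 ± 0.06), in a list of 20 MAP kinase feedback genes with 5 rises and 5 falls (each 3 without some of the 6 h or 12 h libraries).

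BMP-SMAD and ID genes moved both ways, with 7 rises and 5 falls of 20. The inhibitors of DNA binding ID2 (0.56 ± 0.05) and ID1 (0.38 ± 0.05) and the activin antagonist FST (0.62 ± 0.05) rose, and the BMP antagonist GREM1 went from 58739 and 58297 to 42658 and 43762 (−0.44 ± 0.04). Of 29 TGF-beta and contractile genes 9 rose (3 without the intensity trend, 5 without 6 h replicate 1) and 3 fell, with LMOD1, leiomodin 1, at 0.55 ± 0.06. Of 32 cholesterol genes 10 rose (4 without the intensity trend, 5 without 12 h replicate 1, 6 without 6 h replicate 2) and 6 fell (3 without 6 h replicate 1), among them INSIG1, a brake on sterol synthesis (−0.51 ± 0.06). Of 35 lysosome genes 8 fell (4 or 5 without any 1 of the 6 h or 12 h libraries) and 3 rose (1 without the trend, 12 h replicate 1 or 6 h replicate 1), with NPC1, the cholesterol exporter, at −0.68 ± 0.05. Of 18 heat shock genes 2 rose (1 by edgeR, by DESeq2, without the intensity trend, 12 h replicate 2, 6 h replicate 1 or either 9 h library) and 3 fell (1 without the trend or 12 h replicate 1, 5 without either DMSO library), with HSPA4L, an HSP110 relative, at 0.93 ± 0.07. Of 15 NF-kB feedback genes 4 rose, among them BIRC3 (0.84 ± 0.13). Among 23 YAP/TAZ-TEAD targets 9 fell and 4 rose (2 without 12 h replicate 2), and among 29 interferon-stimulated genes 7 rose (3 by DESeq2, 4 without the intensity trend, 2 without 12 h replicate 2) and 2 fell (4 or 5 without a DMSO library), with OAS3 at −0.67 ± 0.11. These lists are described by counts alone, and 14.4% of all genes rose and 17.1% fell.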
